A study of Mus musculus with 29 samples.

Results

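The sites described here are 695 genomic regions that carried a Pou4f3 ChIP-seq peak in both doxycycline-inducible lines in which Pou4f3 was induced together with Atoh1, and none in either line in which Pou4f3 was induced without Atoh1. They were chosen by joining 300 bp windows centred on the summits of all 9 peak lists wherever the windows shared at least 1 bp, which gave 78408 sites in all, of which 47440 had a Pou4f3 peak in some line. The members were 1.47% of those Pou4f3 sites and are called Atoh1-dependent Pou4f3 sites. The name describes in which lists a peak was kept. It is not a test of dependence, since a region without a kept peak can still hold signal below the threshold of the peak caller.

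The study induced Atoh1, Pou4f3 and Gfi1, singly or together, in embryoid bodies grown from mouse embryonic stem cells of the parental line A2loxCre. All lines received 2 µg/ml doxycycline for the last 48 h before collection at day 6, and each carried a tetracycline-responsive cassette encoding its factors and Venus. The data were 17 ChIP libraries and 12 input libraries of 6 lines: iAtoh1 (Atoh1), iPou4f3 (Pou4f3), iG+A (Gfi1 and Atoh1), iG+P (Gfi1 and Pou4f3), iP+A (Pou4f3 and Atoh1) and iGPA (all 3 factors). A Flag tag served to precipitate Atoh1 and a Myc tag Pou4f3, whereas the Gfi1 antibody recognised the untagged protein. Each ChIP had 2 libraries from different clones, except Gfi1 in iGPA with 1, but peaks were called on merged libraries, so no value below carries a spread between replicates. The lines are overexpression models: the factors were driven by doxycycline in mixed embryoid bodies rather than by their own promoters in hair cells or neurons. The Pou4f3 and Atoh1 lists of a line came from the same kind of cells and were compared with the same inputs.

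Pou4f3 is a POU-homeodomain transcription factor that binds AT-rich sequences and is required for the survival and maturation of inner ear hair cells. Atoh1 is a basic helix-loop-helix factor that binds E-boxes together with E proteins and is required for hair cells to form. It also specifies several kinds of neurons, among them cerebellar granule cells. Gfi1 is a zinc-finger protein, best known as a repressor, that hair cells also need to survive.

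The members fell into 3 main classes by the Atoh1 lists, and the sequences that follow show the strongest sites of each. An Atoh1 peak in iAtoh1, the line without induced Pou4f3, was present at 88 members (12.7%, the iAtoh1-marked class). A further 383 members (55.1%) had an Atoh1 peak in iP+A or iGPA but none in iAtoh1 (the combination class). No Atoh1 peak in any of the 4 Atoh1 lists was present at 219 members (31.5%, the Atoh1-negative class). The remaining 5 members had an Atoh1 peak in iG+A only. A peak in any of the 4 Atoh1 lists was thus present at 68.5% of members. It was present at 25.9% of sites with a Pou4f3 peak in all 4 lines. At sites with Pou4f3 peaks in iPou4f3 and iG+P only, the share was 32.6%.

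The 250 bp around the Pou4f3 summit in iGPA are given on the plus strand of NCBIM37 (mm9) for the 3 sites of each class with the highest Pou4f3 fold enrichment in iGPA that met the naming rule. Sites A1 to A3 belong to the iAtoh1-marked class, B1 to B3 to the combination class and C1 to C3 to the Atoh1-negative class. Capitals mark E-boxes, defined here as CAGCTG or as CAGATG, which reads CATCTG on the other strand, and they also mark matches to the Pou4f pattern ATAATTAAT on either strand with at most 1 mismatch. A match is a description of the letters and not evidence that a factor binds them.
A1 (chr4:129386846-129387095): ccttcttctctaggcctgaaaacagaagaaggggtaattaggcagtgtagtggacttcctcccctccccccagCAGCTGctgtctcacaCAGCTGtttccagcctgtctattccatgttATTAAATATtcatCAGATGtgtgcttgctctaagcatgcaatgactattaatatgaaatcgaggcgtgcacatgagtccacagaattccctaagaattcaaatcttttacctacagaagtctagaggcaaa
A2 (chr2:26024421-26024670): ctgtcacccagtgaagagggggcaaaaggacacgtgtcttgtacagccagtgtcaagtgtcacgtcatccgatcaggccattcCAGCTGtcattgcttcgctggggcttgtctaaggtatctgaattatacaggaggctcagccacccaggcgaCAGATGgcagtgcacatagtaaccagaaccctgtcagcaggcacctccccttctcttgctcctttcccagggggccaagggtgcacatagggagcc
A3 (chr11:82403407-82403656): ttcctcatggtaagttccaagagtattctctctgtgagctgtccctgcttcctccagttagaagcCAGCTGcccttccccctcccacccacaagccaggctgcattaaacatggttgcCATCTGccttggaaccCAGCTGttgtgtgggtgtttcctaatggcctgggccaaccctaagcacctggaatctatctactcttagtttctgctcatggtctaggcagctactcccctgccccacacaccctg
B1 (chr17:78637381-78637630): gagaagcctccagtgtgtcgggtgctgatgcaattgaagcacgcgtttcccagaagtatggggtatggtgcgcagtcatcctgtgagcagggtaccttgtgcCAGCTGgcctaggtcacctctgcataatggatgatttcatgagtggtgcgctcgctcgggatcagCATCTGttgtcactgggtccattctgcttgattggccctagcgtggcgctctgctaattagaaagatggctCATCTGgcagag
B2 (chr1:170990828-170991077): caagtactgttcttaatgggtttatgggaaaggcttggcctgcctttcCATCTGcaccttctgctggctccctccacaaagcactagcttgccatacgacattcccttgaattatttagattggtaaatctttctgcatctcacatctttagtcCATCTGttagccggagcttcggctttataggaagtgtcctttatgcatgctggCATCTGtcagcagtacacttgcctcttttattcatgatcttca
B3 (chr12:27588520-27588769): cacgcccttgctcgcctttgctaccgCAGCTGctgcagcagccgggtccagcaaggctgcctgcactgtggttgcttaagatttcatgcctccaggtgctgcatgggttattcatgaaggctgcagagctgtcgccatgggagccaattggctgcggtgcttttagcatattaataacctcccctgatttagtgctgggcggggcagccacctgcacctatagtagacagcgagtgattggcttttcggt
C1 (chr5:99933648-99933897): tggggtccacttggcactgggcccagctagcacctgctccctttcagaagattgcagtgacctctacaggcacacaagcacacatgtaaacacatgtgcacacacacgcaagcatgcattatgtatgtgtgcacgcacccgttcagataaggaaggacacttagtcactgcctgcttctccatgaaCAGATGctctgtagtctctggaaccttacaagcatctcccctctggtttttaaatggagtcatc
C2 (chr4:28787987-28788236): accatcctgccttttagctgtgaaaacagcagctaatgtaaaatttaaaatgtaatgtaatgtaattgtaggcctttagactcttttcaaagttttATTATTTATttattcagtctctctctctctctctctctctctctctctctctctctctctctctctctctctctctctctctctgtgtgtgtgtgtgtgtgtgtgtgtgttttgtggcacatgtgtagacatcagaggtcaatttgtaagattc
C3 (chr4:87166506-87166755): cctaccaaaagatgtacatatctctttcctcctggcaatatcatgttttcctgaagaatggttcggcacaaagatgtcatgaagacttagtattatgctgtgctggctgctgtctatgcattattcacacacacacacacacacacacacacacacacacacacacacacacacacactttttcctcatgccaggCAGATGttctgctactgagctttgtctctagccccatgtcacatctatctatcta

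Every one of the 6 printed sites with an Atoh1 peak held at least 1 E-box, and 5 of them held 2 or 3. Site A1 also held 1 Pou4f match, ATTAAATAT, whose centre lay 1.5 bp from the Pou4f3 summit and 11.5 bp from the centre of the closest E-box. Sites C1 and C3 held 1 E-box each, 64 and 73 bp from the summit, and site C2 held only a Pou4f match. Long dinucleotide repeats stand beside the summits of C2 and C3. A simple repeat of at least 24 bp was found in the same window at 5.76% of members and 5.50% of constant sites.

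Site A1 lay at chr4:129386775-129387325 in an intron of Khdrbs1, which encodes an RNA-binding protein. Its Pou4f3 fold enrichment, the ratio of ChIP fragments to local background at the summit, was 5.66 in iP+A and 13.1 in iGPA. The Atoh1 fold enrichment there was 24.0 in iGPA and 13.9 in iP+A, but 3.18 in iAtoh1 and 3.87 in iG+A, and the Gfi1 fold enrichment was 12.8. The larger Atoh1 values thus stood in the lists with induced Pou4f3. The intergenic site A2, at chr2:26024347-26024733, had Lhx3, a LIM-homeodomain gene of hair cells, as its closest protein-coding start, at 39223 bp, and had a Pou4f3 fold of 4.19 in iP+A and 10.3 in iGPA. Its Atoh1 folds were 15.1 in iGPA and 11.7 in iP+A, against 4.28 in iAtoh1 and 7.34 in iG+A. The intergenic site A3, at chr11:82403357-82403684, had Pou4f3 folds of 5.32 and 9.33 in iP+A and iGPA and Atoh1 folds of 13.1 and 22.7 in the same lines, beside 4.40 in iAtoh1 and 5.47 in iG+A. The fourth named site of the class, at chr14:15816424-15816738 in an intron of Nek10, was the one with the strongest Atoh1 peaks of the 4, at 11.2 in iAtoh1 and 37.7 in iGPA, and had the lowest Pou4f3 folds of the 4, at 3.40 in iP+A and 8.59 in iGPA. Fold enrichment cannot be compared closely between lists, since backgrounds and depths differ.

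Site B1 lay at chr17:78637354-78637655 in an intron of Crim1, which encodes a membrane protein that binds bone morphogenetic proteins. It had the highest Pou4f3 fold of all named sites in iGPA, 13.5, against 4.98 in iP+A, and Atoh1 folds of 8.28 in iP+A and 17.1 in iGPA. Site B2 was intergenic, at chr1:170990803-170991122 and 393047 bp from the closest annotated start, with Pou4f3 folds of 4.87 and 13.4 and Atoh1 folds of 6.99 and 14.2 in iP+A and iGPA. Site B3 was likewise intergenic, at chr12:27588433-27588794, with Pou4f3 folds of 4.08 and 12.7 and Atoh1 folds of 9.47 and 15.8. The fourth named site of the class, at chr13:21097573-21097894 in an intron of Aoah, held both an E-box and a Pou4f match and had Pou4f3 folds of 4.98 and 12.4 and Atoh1 folds of 9.04 and 16.2. None of the 4 had an Atoh1 peak in iAtoh1 or iG+A, and B2 and B3 also carried Gfi1 peaks, at folds of 9.90 and 10.3.

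The Atoh1-negative sites were weaker at their top. Site C1, at chr5:99933577-99933922 in an intron of A930011G23Rik, had Pou4f3 folds of 3.28 in iP+A and 7.43 in iGPA. Site C2, at chr4:28787957-28788261 in an intron of Epha7, a receptor of axon guidance, had 3.17 and 7.28. Site C3, at chr4:87166481-87166836, had 3.17 and 6.84, and the fourth, at chr15:81662576-81662878 and 11356 bp from a start of Tef, had 3.51 and 6.41 with neither pattern in its window.

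The values that chose the members describe how strong they were. Their Pou4f3 fold enrichment had a median of 3.06 in iP+A, from 2.38 to 9.28, beside a median of 3.17 over all kept peaks of that list. In iGPA the median was 3.93, from 2.08 to 13.5, beside 4.08 over the whole list. The members' medians thus lay slightly under those of both lists, while the 7032 sites with a Pou4f3 peak in all 4 lines, called constant Pou4f3 sites here, had higher medians of 3.62 and 5.97. Across the 695 members, log2 Pou4f3 folds in the iP+A and iGPA lists had a Pearson correlation of 0.45, which is a description over sites that share lines and genome. The 3 weakest members in iP+A were just inside the rule with a −log10 p of 4.15 at a fold of 2.38, and the weakest in iGPA had a −log10 p of 4.37 at a fold of 2.62. Raising the minimum −log10 p to 10 in the Pou4f3 and Atoh1 lists left 290 members, and cutting the Pou4f3 lists to equal length gave 1081.

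The lists that had to hold no peak were the longer ones, with 22433 kept peaks in iPou4f3 and 32632 in iG+P, against 17082 in iP+A and 18751 in iGPA. Total reads were not used here. The local background recovered from the peak values had a usual value of 5.87 fragments in iGPA, 7.83 in iP+A, 7.41 in iPou4f3 and 8.14 in iG+P. It is given as a description, and no result was adjusted for it. In iPou4f3, 22 members (3.17%, 95% exact interval 1.99 to 4.75) lay on a peak that had been called but not kept, and in iG+P this held for 40 members (5.76%, 4.14 to 7.76). Together these were 54 members, and they were unevenly spread: 31 of the 88 iAtoh1-marked sites (35.2%, 25.3 to 46.1), 11 of the 383 combination sites (2.87%) and 9 of the 219 Atoh1-negative sites (4.11%). A kept Pou4f3 peak window of iPou4f3 or iG+P lay within 1000 bp of 102 members (14.7%) and within 300 bp of 53 (7.63%).

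The members were one of the rarer patterns over the 4 Pou4f3 lists. Pou4f3 sites kept in exactly 2 lists numbered 2714 for iPou4f3 with iG+P, 2530 for iG+P with iGPA, 1796 for iG+P with iP+A, 1015 for iPou4f3 with iP+A, 728 for iPou4f3 with iGPA and 695 for the members. The last but one pair differs by both Gfi1 and Atoh1, and it held about as many sites as the members did, so the number of members alone does not set them apart from pairs that no single factor defines. Of the 6877 sites with a Pou4f3 peak in iP+A and none in iPou4f3, 1698 (24.7%, 23.7 to 25.7) also had one in iGPA, while 2799 (40.7%) had one in iG+P.

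The members differed from the other Pou4f3 sites in sequence. An E-box was found in the 250 bp centred on the summit at 447 of 695 members (64.3%, 95% exact interval 60.6 to 67.9), beside 26.6% of all Pou4f3 sites. In the 5 other patterns of exactly 2 lists the share ran from 20.8% to 27.1%. It was 28.0% (26.9 to 29.0) at constant sites, a difference of 36.3 percentage points (95% Newcombe interval 32.6 to 39.97). Windows of the same length 1000 bp upstream and downstream of the members held an E-box in 27.6% and 26.6% of cases. Intervals here and below cover counting error over sites only, and neighbouring sites are not independent. The E-box share was 34.6% at sites that missed the rule only by a peak in iG+P, 33.6% at those that missed it only by a peak in iPou4f3, 42.1% where iGPA alone had a Pou4f3 peak and 29.8% where iP+A alone had one. All of these shares lay below that of the members.

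**Figure D1:**
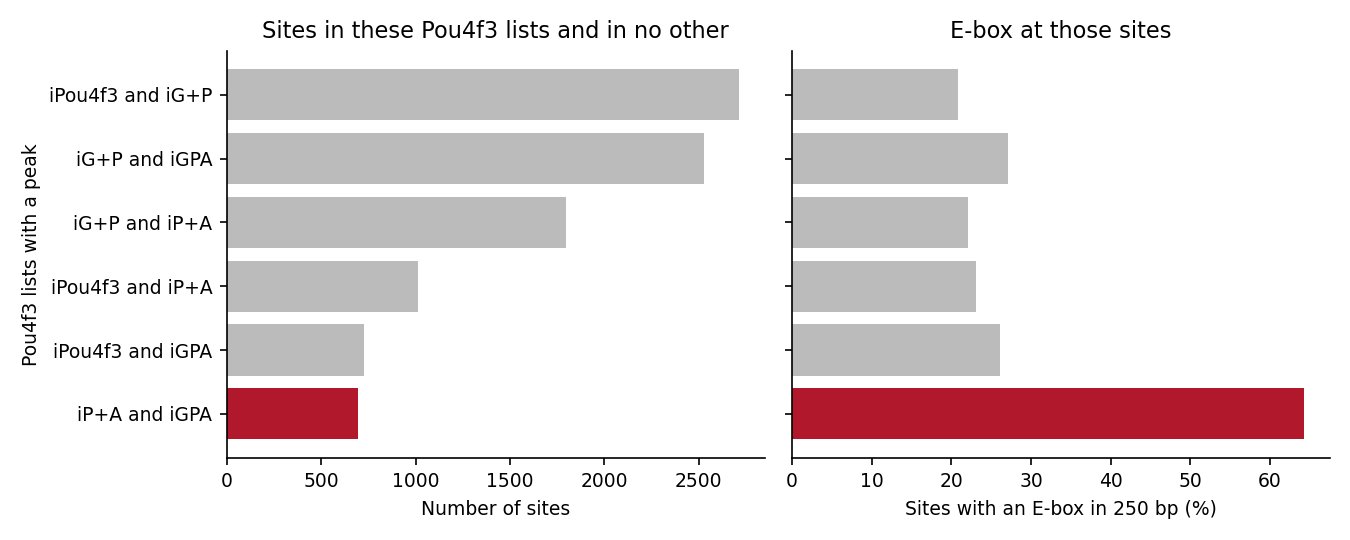
Number of Pou4f3 sites kept in exactly 2 of the 4 Pou4f3 lists (left, count) and the percent of them with an E-box in the 250 bp around the Pou4f3 summit (right). Bars are the 6 possible pairs of lists, with the 695 members (iP+A and iGPA) in red: they are the smallest group and have the highest E-box share, 64.3% against 20.8% to 27.1%.

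The Pou4f pattern was less frequent at members than at constant sites, but not than at every group of Pou4f3 sites. It was found at 254 members (36.5%, 33.0 to 40.2), beside 37.9% of all Pou4f3 sites and 59.9% (58.7 to 61.05) of constant sites. The difference from constant sites was −23.4 percentage points (−27.0 to −19.5). The share was 35.5% at sites with Pou4f3 peaks in iPou4f3 and iG+P only, where the interval of the difference was −2.92 to 5.08 points. In the other pairs of lists it was 60.5% for iG+P with iGPA, 43.8% for iPou4f3 with iGPA, 22.5% for iPou4f3 with iP+A and 21.2% for iG+P with iP+A. It was 43.5% where iGPA alone had a Pou4f3 peak and 18.4% where iP+A alone had one, and 52.1% and 40.4% at sites that missed the rule only by a peak in iG+P or in iPou4f3. The members held it more often than their own flanks, where it was present at 8.35% upstream and 7.91% downstream. An E-box without a Pou4f match was the most frequent state, at 286 members (41.2%) beside 10.4% of constant sites. Both patterns were present at 161 members (23.2%) and neither at 155 (22.3%), beside 17.5% and 29.7% of constant sites. At sites with Pou4f3 peaks in iPou4f3 and iG+P only these shares were 7.33% and 51.0%. Because members were weaker Pou4f3 peaks than constant sites, the same shares were taken over the 2380 constant sites whose iGPA Pou4f3 fold lay between the members' quartiles. There the E-box share was 22.8% and the Pou4f share 62.6%, and the members differed from them by 41.5 (37.5 to 45.3) and −26.0 (−30.0 to −21.9) percentage points.

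Among individual words, CAGATG and CAGCTG ranked first and second of all 2080 words of 6 letters, counted with their complements, by the difference in share between members and constant sites. CAGATG was present at 44.0% of members, 18.2% of constant sites and 17.2% of all Pou4f3 sites. CAGCTG was present at 32.4%, 12.4% and 11.6%. The related E-box CAGGTG, to which many other basic helix-loop-helix and zinc-finger factors bind, was present at 16.7% of members and 15.0% of constant sites, and the interval of that difference, −1.08 to 4.71 percentage points, included 0. Between all members and the constant sites within the members' fold quartiles the difference was 6.19 points (3.29 to 9.36). CACGTG, the E-box of Myc-type factors, was found at 3.02% and 3.04%. The longer Atoh1 E-box motif known as AtEAM was searched as RMCAKMTGKY without a mismatch, where R is A or G, M A or C, K G or T and Y C or T. In this strict form it was present at 12.1% of members, 2.45% of constant sites and 2.55% of all Pou4f3 sites. Members stood 9.64 points (7.39 to 12.3) above constant sites. The authors' own motif search was not repeated, so these shares cannot be set beside theirs. At the other end of the ranking stood the AT-rich word AATAAT, at 39.3% of members and 67.4% of constant sites. The POU octamer ATGCAAAT was found at 3.02% and 2.10%. The Gfi1 pattern, AATCACTGC or its variant AATCACAGC, was found at 0.719% and 0.683%, and the intervals of both differences included 0. Over all Pou4f3 sites these shares were 2.04% and 0.552%. The word ranking was made after the E-box result was known.

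Atoh1 peaks were common at the members in iP+A and iGPA, the lines that chose them, and not in iAtoh1 or iG+A. In iP+A, 409 members (58.8%, 55.1 to 62.5) had an Atoh1 peak, beside 17% of all Pou4f3 sites and 17.9% of constant sites. In iGPA it was 422 members (60.7%, 57.0 to 64.4), beside 18.2% and 22.1%. In iAtoh1, which had no induced Pou4f3, it was 88 members (12.7%, 10.3 to 15.4), beside 11.3% of all Pou4f3 sites, a share near the background. In iG+A it was 101 members (14.5%, 12.0 to 17.4), beside 12.5%. The Pou4f3 rule did not use the Atoh1 lists, but Atoh1 and Pou4f3 were precipitated from the same lines in iP+A and iGPA. Whether some regions enrich readily in those lines with any antibody was not tested.

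Against constant sites the members' share was higher by 40.9 percentage points in iP+A (37.1 to 44.6) and 38.6 in iGPA (34.8 to 42.3). It was higher by 7.87 points in iAtoh1 (5.54 to 10.6) and 8.25 in iG+A (5.75 to 11.1). The iAtoh1 difference turned to −2.61 points (−5.11 to 0.203) when all called peaks were used in place of the kept ones. With a minimum −log10 p of 10 in both the Pou4f3 and the Atoh1 lists the iAtoh1 share of members was 5.17%. At the 2714 sites with Pou4f3 peaks in iPou4f3 and iG+P only, 13.6% had an iAtoh1 Atoh1 peak, and the members differed from them by −0.934 points with an interval of −3.57 to 2.02. In iP+A and iGPA the members stood 42.2 and 40.6 points above those sites.

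**Figure D2:**
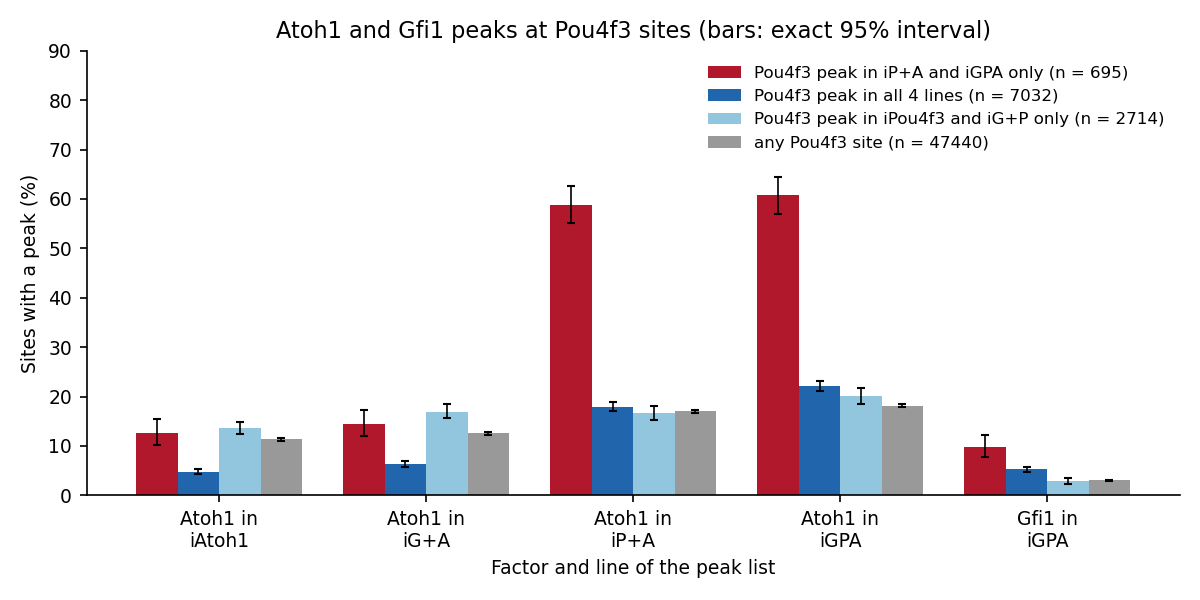
Percent of sites with an Atoh1 or Gfi1 peak (y axis) in each of 5 lists (x axis), for the 695 members, 7032 constant sites, 2714 sites with Pou4f3 peaks in iPou4f3 and iG+P only, and all 47440 Pou4f3 sites. Error bars are exact 95% intervals for counting error: the members reach 58.8% and 60.7% in iP+A and iGPA, while in iAtoh1 and iG+A, at 12.7% and 14.5%, they lie above the constant sites (4.79% and 6.29%) and near all Pou4f3 sites (11.3% and 12.5%).

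The most frequent Atoh1 pattern at the members was a peak in both iP+A and iGPA and in neither iAtoh1 nor iG+A. It was seen at 282 members (40.6%, 36.9 to 44.3), against 9.97% of constant sites. The share was 2.06% at sites with Pou4f3 peaks in iPou4f3 and iG+P only and 2.29% at those of iG+P and iGPA only. At those 282 regions neither factor had a kept peak when it was induced without the other, with or without Gfi1. Their E-box share was the highest of all groups examined, 254 of 282 (90.1%, 86.0 to 93.3), with CAGATG at 60.3% and CAGCTG at 47.9%, and 103 of them held more than 1 E-box. Their Pou4f share was 33.3% (27.9 to 39.2). Atoh1 peaks in all 4 lists were present at 53 members (7.63%), beside 2.97% of constant sites. They were present at 4.53% of sites with Pou4f3 peaks in iPou4f3 and iG+P only and 1.58% of those of iG+P and iGPA only.

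The 3 classes differed in sequence. In the combination class 315 of 383 sites held an E-box (82.2%, 78.0 to 85.9), in the iAtoh1-marked class 54 of 88 (61.4%, 50.4 to 71.6), and in the Atoh1-negative class 78 of 219 (35.6%, 29.3 to 42.3). The combination class exceeded the Atoh1-negative class by 46.6 points (38.9 to 53.6), and the iAtoh1-marked class stood 20.9 points below the combination class, with an interval of −31.9 to −10.5. The Pou4f pattern had another order, at 12.5% (6.41 to 21.3) of iAtoh1-marked sites, 32.1% (27.5 to 37.0) of combination sites and 54.3% (47.5 to 61.1) of Atoh1-negative sites. Both patterns were thus less frequent in the iAtoh1-marked class than in the combination class, by 19.6 points for the Pou4f pattern with an interval of −26.8 to −10.0. The Atoh1-negative sites differed from constant sites in the Pou4f pattern by −5.56 points, with an interval of −12.3 to 1.01, and exceeded them in the E-box by 7.64 points (1.51 to 14.3). AtEAM was present at 17.8% of combination sites and 1.37% of Atoh1-negative sites.

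**Figure D3:**
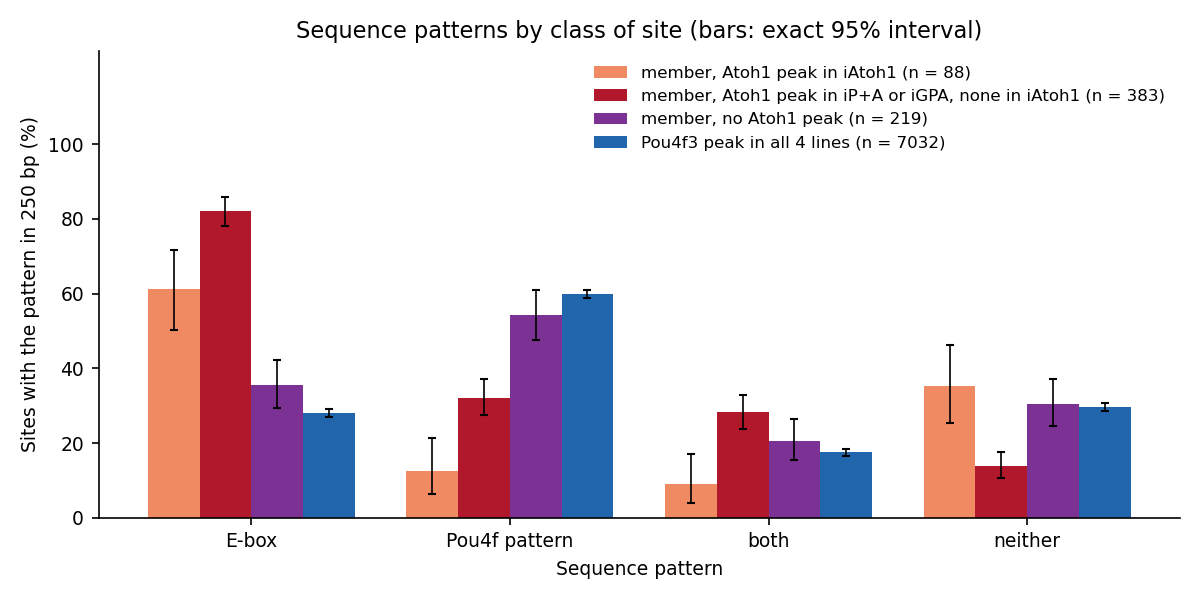
Percent of sites (y axis) with an E-box, a Pou4f pattern, both or neither in the 250 bp around the Pou4f3 summit (x axis), for the 3 classes of members and for constant sites, with exact 95% intervals. The E-box is most frequent in the combination class, at 82.2%, and the Pou4f pattern is least frequent in the iAtoh1-marked class, at 12.5%.

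In the 250 bp around the Pou4f3 summit, constant sites with an Atoh1 peak held an E-box less often than members with one. Constant sites with an iGPA Atoh1 peak numbered 1552, and 51.5% of them held an E-box and 47.4% a Pou4f match. Members with an iGPA Atoh1 peak numbered 422, and 81.5% held an E-box and 28.4% a Pou4f match. The differences were 30.0 points (25.3 to 34.2) and −18.9 points (−23.7 to −13.8). The 2 groups also differed in place: 8.29% of these members lay within 1 kb of a start, against 24.4% of these constant sites. That difference was −16.1 points (−19.3 to −12.5), and whether it bears on the pattern shares was not tested. The search was centred on the Pou4f3 summit, not on the Atoh1 summit. In iGPA the Atoh1 summit lay within 120 bp of it at 90.3% of these members and 76.3% of these constant sites. E-boxes around the Atoh1 summits were not counted, so how far this bears on the E-box shares was not tested.

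The patterns were centred on the Pou4f3 summits. Among members with an E-box, the median distance from the closest E-box centre to the Pou4f3 summit was 23 bp, and 53.2% (48.5 to 57.9) lay within 25 bp, against 50 bp and 25.8% (23.9 to 27.8) at constant sites. In the combination class the values were 20 bp and 58.1%, while at Atoh1-negative sites they were 46 bp and 30.8%. For the Pou4f pattern the median distance was 18.5 bp at members and 13.5 bp at constant sites, with 61.8% (55.5 to 67.8) and 69.7% (68.2 to 71.0) within 25 bp. The members' Pou4f3 summits thus lay near E-boxes as well as Pou4f matches, where present, while those of constant sites lay nearer to Pou4f matches than to E-boxes.

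**Figure D4:**
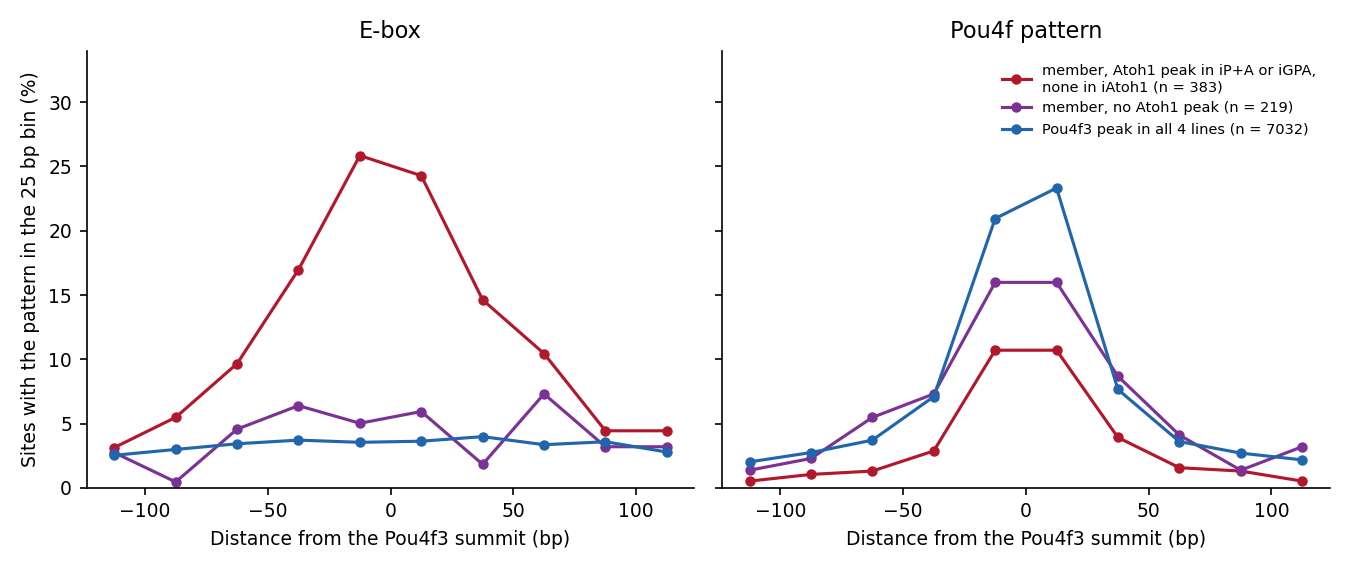
Percent of sites (y axis) with an E-box (left) or Pou4f pattern (right) centred in each 25 bp bin by distance from the Pou4f3 summit in bp (x axis), for combination-class members, Atoh1-negative members and constant sites. In the 2 central bins 25.8% and 24.3% of combination-class sites held an E-box, against 3.54% and 3.63% of constant sites.

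In the combination class 108 sites held both, and in 69 of them (63.9%, 54.1 to 72.9) the closest pair of centres was at least 10 and under 40 bp apart, with a median of 31.5 bp. The same spacing was seen at 13 of 45 Atoh1-negative sites with both (28.9%, 16.4 to 44.3) and at 375 of 1233 such constant sites (30.4%, 27.9 to 33.1). At constant sites with an iGPA Atoh1 peak it was seen at 199 of 448 (44.4%, 39.8 to 49.2). Sites with more E-boxes offer more pairs, and 122 of the 383 combination sites held more than 1 E-box against 5.29% of constant sites.

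The summits of the Atoh1 and Pou4f3 peaks lay close together at the members. In iGPA the median distance over 422 members was 25 bp (quartiles 11 and 49 bp, 95% interval of the median 22 to 28), against 40 bp (37 to 43) over 1552 constant sites. Within 50 bp lay 323 of the 422 (76.5%, 72.2 to 80.5) and 58.1% (55.6 to 60.5) of the constant sites. In iP+A the medians were 34 bp (30 to 37) over 409 members and 50 bp (46 to 54) over 1262 constant sites. In the iAtoh1-marked class the iGPA median was 41 bp and in the combination class 24 bp. The joined sites were shorter among members with an iGPA Atoh1 peak, with a median of 361 bp against 403 bp at such constant sites, which bounds the distances that could be seen.

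**Figure D5:**
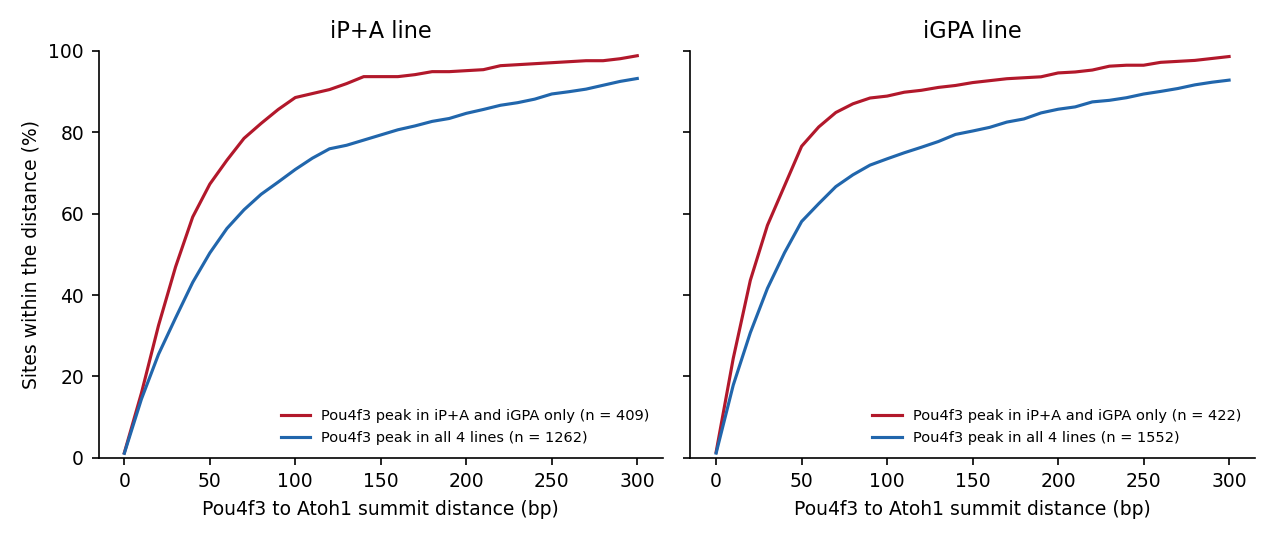
Cumulative percent of sites (y axis) by the distance in bp between Pou4f3 and Atoh1 summits (x axis) in iP+A (left) and iGPA (right), for members and constant sites with both peaks in that line. Within 50 bp lay 67.2% of members in iP+A and 76.5% in iGPA, against 50.3% and 58.1% of constant sites.

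Atoh1 peaks at the members mostly lay above the median of their list. Each site was given the fold of its strongest peak in a list, set beside all single peaks of that list. The median Atoh1 fold was 4.52 at members in iP+A, above 84.8% of all peaks in that list, and 5.91 in iGPA, above 85.5%. At the 88 iAtoh1-marked members the iAtoh1 fold had a median of 4.08, from 2.57 to 43.9, above 80.7% of that list. In iG+A the median over 101 members was 3.87, above 71.4% of that list. Over the 33 combination sites with a peak there it was 3.34, above 50.9%. At constant sites with an Atoh1 peak the medians were lower than at members, at 3.55 in iP+A, 4.18 in iGPA, 3.54 in iAtoh1 and 3.34 in iG+A. Across the 422 members with both peaks in iGPA, log2 Pou4f3 and Atoh1 folds had a Pearson correlation of 0.45 and a Spearman correlation of 0.52, over sites of 1 line.

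An Atoh1 peak was more frequent at members with a higher Pou4f3 fold, which is given as a description within 1 line. The members were split by their iGPA Pou4f3 fold into 3 groups of 231, 232 and 232. An iGPA Atoh1 peak was present at 38.1% (31.8 to 44.7) of the lowest group, 54.7% (48.1 to 61.3) of the middle group and 89.2% (84.5 to 92.9) of the highest. The E-box share was 43.3%, 63.4% and 86.2% in the same order. The Pou4f share did not follow, at 35.1%, 41.8% and 32.8%, and iAtoh1 Atoh1 peaks were most frequent in the lowest group, at 18.6% against 9.91% and 9.48%.

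Seen from the Atoh1 side, the 200 strongest Atoh1 sites of iAtoh1, all with a fold of at least 8.80, had a Pou4f3 peak of iP+A in 26.5% of cases (20.5 to 33.2) and of iGPA in 23.0% (17.4 to 29.5). Only 10.5% (6.62 to 15.6) had one of iPou4f3 and 22 of the 200 one of iG+P, and 14 were members. Over all 15025 Atoh1 sites of iAtoh1 the order was different, with 16.1% for iP+A, 7.37% for iGPA, 12.8% for iPou4f3 and 24.8% for iG+P, and the 88 members were 0.586% of these sites.

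Gfi1 peaks were present at 68 members (9.78%, 7.68 to 12.2), beside 3.04% of all Pou4f3 sites and 5.28% of constant sites. Among sites with an iGPA Atoh1 peak the shares were 15.2% of members and 17.0% of constant sites, a difference of −1.84 points with an interval of −5.51 to 2.30. They were found at 23.9% (15.4 to 34.1) of iAtoh1-marked sites, 11.5% (8.47 to 15.1) of combination sites and 1.37% (0.283 to 3.95) of Atoh1-negative sites. The Gfi1 list came from 1 library and has no replicate.

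Most members lay away from promoters. Within 1 kb of an annotated transcription start lay 68 (9.78%, 7.68 to 12.2), beside 21.8% of all Pou4f3 sites, 13.4% of constant sites and 36.6% of sites with Pou4f3 peaks in iPou4f3 and iG+P only. The difference from constant sites was −3.63 points (−5.78 to −1.07). A low share was not particular to the members: it was 8.18% at sites with Pou4f3 peaks in iG+P and iGPA only. The members differed from those sites by 1.60 points, with an interval of −0.690 to 4.24. Over 50 kb from any start lay 33.5% of members and 25.1% of constant sites, and the median distance was 25137 and 16519 bp. By the summit, 345 members were intergenic, 315 intronic, 11 in coding exons, 18 in untranslated regions and 6 in other exons. Other Pou4f3 sites were not sorted in this way, so nothing particular to the members is read from these counts. The median GC content was 44.4% at members and 42.4% at constant sites, and it was 49.6%, 45.2% and 42.0% in the iAtoh1-marked, combination and Atoh1-negative classes.

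Members were spread over chromosomes 1 to 19 and X, with 16 to 55 on each of the former and 6 on X. Their closest starts belonged to 653 gene IDs, of which 37 were closest to more than 1 member. Prl2c3, of the prolactin family on chromosome 13, was closest to 5, all between chr13:12896817-12985189, and no other gene was closest to 4 or more. Prl2c genes are closely similar copies, and how uniquely reads could be placed there, or at the other groups in gene families, was not tested. In all, 53 members lay within 50 kb of another member, in 24 groups.

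Exons of the induced genes need separate reading, since the cassettes carry copies of them. The member at chr6:64679281-64679798 lay in the coding exon of Atoh1, with Pou4f3 folds of 6.68 in iP+A and 3.32 in iGPA and Atoh1 folds of 5.41 in iGPA, 4.84 in iP+A, 4.89 in iAtoh1 and 3.74 in iG+A. Peaks were kept there in all 6 lists of lines with an Atoh1 cassette that were made with the Flag or Myc antibody, and in neither Pou4f3 list of a line without it. It held neither an E-box nor a Pou4f match. Binding and extra copies of the sequence cannot be told apart there. No member overlapped an exon of Pou4f3 or Gfi1.

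Protein-coding genes whose start was closest to at least 1 member made up 2.85% of all annotated ones. Lists of genes of known function were read beside it, as counts without a test. Hair cell genes were 5 of 39 annotated (12.8%), namely Lhx3, Calb2, Barhl1, Insm1 and Atoh1 itself through the exonic site above. Axon guidance genes were 8 of 50 (16.0%), neuronal genes 3 of 41 (7.32%), proneural and neurogenic basic helix-loop-helix genes 2 of 26 (7.69%) and Notch pathway genes 2 of 27 (7.41%). The same lists were also above all genes at the far more numerous constant sites, where the shares were 41.0%, 68.0%, 58.5%, 46.2% and 29.6%, beside 21.3% of all protein-coding genes. Nothing particular to the members is read from these shares, and the space between neighbouring genes was not taken into account. Distances ran from 291 bp to 1602826 bp, so a closest start does not tie a site to a gene.

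Several of these sites were among the stronger members. The member in an intron of Myt1, which encodes a zinc-finger factor of neuronal differentiation, lay at chr2:181498567-181498918 and 732 bp from a start. It had Pou4f3 folds of 4.14 and 9.76 and Atoh1 folds of 4.63 and 11.3 in iP+A and iGPA, with an E-box and no Pou4f match. A member 39443 bp upstream of Hey1, a Notch effector, had Pou4f3 folds of 4.30 and 7.86 and Atoh1 folds of 6.56 and 11.7 and also held an E-box alone. The member in an intron of Nrcam, a neuronal adhesion molecule, had Pou4f3 folds of 3.17 and 7.14 and Atoh1 folds of 15.3 in iGPA and 8.39 in iP+A beside 3.79 in iAtoh1 and 7.88 in iG+A. These 3 sites had Atoh1 peaks in both lines that chose them, and only the Nrcam site had one without induced Pou4f3.

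Barhl1, a homeobox gene that hair cells need to survive, was closest to 2 members by protein-coding starts. The one 23054 bp upstream, at chr2:28795092-28795466, had Pou4f3 folds of 2.83 and 5.39, Atoh1 folds of 3.44 and 8.37 and a Gfi1 fold of 4.84, and held both patterns. The intronic one, at chr2:28765421-28765778, had Pou4f3 folds of 2.72 and 3.64, no Atoh1 peak and a Pou4f match only. A member 32363 bp from the start of Calb2, which encodes the calcium buffer calretinin, had Pou4f3 folds of 4.87 and 3.50 and Atoh1 folds of 6.24 and 9.23, with both patterns and a Gfi1 fold of 5.94. A member 4982 bp upstream of Insm1, a zinc-finger gene of outer hair cells and neurons, had Pou4f3 folds of 4.19 and 2.77 and Atoh1 folds of 4.09 and 4.68. None of these 4 had an Atoh1 peak in iAtoh1 or iG+A.

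Id2, an inhibitor of basic helix-loop-helix factors, was closest to 2 members. The one 1231 bp upstream, at chr12:25782027-25782527, had Pou4f3 folds of 3.51 and 4.37, Atoh1 folds of 4.41 and 6.52 and both patterns, and the one 70659 bp upstream had Pou4f3 folds of 3.40 and 4.08 and no Atoh1 peak. Dll4, a Notch ligand, had a member 3589 bp upstream with Pou4f3 folds of 2.72 and 3.06 and Atoh1 folds of 4.76 in iAtoh1 and 10.6 in iGPA. The remaining neuronal genes were Lhx9, whose site had Pou4f3 folds of 2.60 and 3.20 and no Atoh1 peak, and Celf4, whose site lay 1464680 bp upstream and had 3.96 and 6.70 with Atoh1 folds of 5.70 and 7.88.

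The axon guidance sites were mostly intronic. Those in Ephb2, Epha4, Slit1 and Sema3a had Atoh1 peaks in iGPA, at folds of 6.77, 3.57, 2.83 and 4.31, and none in iAtoh1. Those in Dscam and Slit3 and the one 441777 bp upstream of Robo1 had no Atoh1 peak, and their iGPA Pou4f3 folds were 3.50, 3.93 and 3.06. Epha7 was also the closest protein-coding start, at 1602826 bp, of an intergenic member with Pou4f3 folds of 5.32 and 5.53 and Atoh1 folds of 3.23 and 4.31. Sema3a was closest by transcript starts only and is not among the 8 counted by protein-coding starts.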

How the data were processed

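The data were 9 lists of ChIP-seq peaks, 1 for each pair of line and factor. The authors aligned trimmed reads to mm9 using Bowtie 2, filtered out duplicates, poorly mapped reads and blacklisted regions, and used MACS 2 for peak calling on merged replicates against merged inputs. The deposited fold enrichment is a ratio of ChIP fragments to local background, and the deposited −log10 p beside it is that of the peak caller. Its −log10 q was not used. The deposited score column and the signal column of the summit lists, whose definition is not given in the sources used here, were not used. The summit lists name the peaks the authors kept. In the Pou4f3 lists, 14.1% to 31.5% of called peaks were left out on grounds that are not given in the sources used here. The lists whose names refer to 3 factors were taken as those of iGPA.

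The members, gene lists and tests were chosen with earlier results of these data known. Windows of 300 bp around kept summits were joined where they shared 1 bp. Sequence came from NCBIM37, the assembly of mm9. Both strands were searched for patterns within the 250 bp around the iGPA Pou4f3 summit, or, where iGPA had none, around that of the first of iP+A, iG+P and iPou4f3 with a peak. The Pou4f pattern ATAATTAAT allowed 1 mismatch. Of several peaks of 1 list in a site, the one with the highest fold was used. Starts, introns and exons were those of GENCODE vM1. Distances to transcript starts used all transcripts, and the gene lists used starts of protein-coding genes. Named sites were the 4 members of each class with the highest iGPA Pou4f3 fold on chromosomes 1 to 19 and X, outside short tandem repeats (a unit of up to 12 bp repeated over at least 80% of the central 100 bp) and exons of the induced genes. Genes closest to at least 4 members and every listed gene closest to a member were named too. Depth was not used. The background behind a peak was recovered from its fold and −log10 p over 2000 sampled peaks per list, with a tolerance of 0.001.

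Shares have exact Clopper-Pearson and differences Newcombe 95% intervals, which cover counting error only. No p-value was computed, since sites are not replicates and the lists hold no values per library. The site joining, pattern search and intervals were tested on simulated data. Python 3.11.15, scipy 1.17.1 and pandas 2.3.3 were used.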

Additional observations from a re-analysis of the deposited data

Results flagged for a closer look

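Peaks that the authors' peak caller reported but the summit lists left out were outside the main measurement, and some stood at members in the very lists that had to be empty. There were 22 members with such a peak in iPou4f3, at a median fold enrichment of 2.39 and a highest of 3.21, and 40 members in iG+P, at a median of 2.74 and a highest of 4.71. Either was present at 31 of the 88 members with an iAtoh1 Atoh1 peak (35.2%), 11 of the 383 combination sites (2.87%) and 9 of the 219 Atoh1-negative sites (4.11%). Without these 54 members the share with an iAtoh1 Atoh1 peak was 8.89%, in place of 12.7%, and the E-box share 67.4%, in place of 64.3%.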

How the results depend on the processing

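No paired analysis was possible because peaks were called on merged replicates, so the lists hold no values per library, and leaving out each replicate in turn could not be run for the same reason. Over 17 alternatives, 16 chosen beforehand and 1 added after seeing the data (members within 50 kb of another left out), 90 of 122 values stayed within the interval of the reported value or within 1.5 times the reported count. The E-box difference from constant sites stayed above 0 and the Pou4f difference below 0 under all that were run. All called peaks gave an E-box share of 59.9%, a Pou4f difference of −18.1 points and an iAtoh1 Atoh1 difference of −2.61 points, the only value that changed sign. Counting called peaks as present in iPou4f3 and iG+P gave an iAtoh1 Atoh1 share of 8.89% and a difference of 4.10 points. Windows of 100 bp gave an iGPA Atoh1 share of 54.1%, and windows of 1000 bp an iAtoh1 difference of 3.51 points. A −log10 p of at least 10 in the Pou4f3 and Atoh1 lists left 290 members. Their iAtoh1 Atoh1 share was 5.17% and their iGPA Atoh1 share 66.6%, with an iAtoh1 difference of 3.12 points. Their E-box share was 72.4% and their Pou4f share 41.4%, with differences of 43.2 and −19.5 points. Within 1 kb of a start lay 7.24% of them. With the Pou4f3 lists cut to equal length there were 1081 members, with an iGPA Atoh1 share of 52.9%, an E-box share of 57.0%, a Pou4f share of 42.0%, and differences of 29.5 points for the E-box and −19.5 points for the Pou4f pattern. AtEAM in place of the E-box gave 12.1% and a difference of 9.64 points, and CAGCTG alone 32.4% and 20.0 points. The Pou4f pattern without a mismatch gave 4.89% and −7.11 points. In 100 bp around the summit the E-box share was 48.6% and the Pou4f share 29.5%. Within 5 kb of a start lay 22.0%, and within 1 kb of a protein-coding start 6.33%. Apart from those made by a stricter or looser pattern, window or threshold, the causes of these shifts were not tested. Depth is not known, so a member's missing peak in iPou4f3 or iG+P may lie below the threshold.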
